A study of Homo sapiens with 6 samples.

Results

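The core autophagy genes described here are SQSTM1, MAP1LC3B, GABARAPL1, ULK1, BECN1, ATG5, ATG7, ATG12, ATG9A and WIPI1. They were taken by gene symbol from a table of 61280 gene rows, and each of the 10 symbols had a single row, so all 10 of 10 members are reported. The samples were RNA-seq libraries of MDA-MB-231, a human breast cancer cell line without hormone receptors. The irradiated group held 3 samples exposed to X-rays at a dose of 20 Gy and kept in culture for a further 24 h, and the control group held 3 samples of the same line that were not irradiated. Both groups grew in DMEM with fetal bovine serum and antibiotics, and no culture time is stated for the controls. Levels are TPM, a unit scaled to the same total in each library: the share of a library that belongs to a gene after division by transcript length, so levels can be compared between genes as well as between samples. The number of reads behind a value is unknown, and a share cannot separate a change in 1 transcript from a change in the total RNA of a cell.

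Autophagy is the process by which a cell wraps part of its cytoplasm in a double membrane, the autophagosome, and delivers it to the lysosome for breakdown. A kinase complex built on ULK1 starts it, a lipid kinase complex with Beclin 1 marks the site with phosphatidylinositol 3-phosphate, ATG9A vesicles and WIPI proteins help the membrane to grow, and ubiquitin-like conjugation driven by ATG7 attaches LC3 and GABARAP proteins to it. Cargo receptors such as SQSTM1, also called p62, bind both the cargo and these attached proteins and are degraded with them. Much of this control acts on proteins, and transcript levels do not measure how much material passes through the pathway.

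Of the markers of the labelled line, VIM lay at 1583 to 1599 TPM in irradiated and 1936 to 2011 TPM in control libraries. CAV1 lay at 135.45 to 145.32 and 188.56 to 206.48 TPM, and AXL at 137.45 to 154.18 and 185.67 to 188.79 TPM, in the same order. CD44 overlapped between groups, at 186.05 to 267.65 TPM in irradiated and 209.33 to 222.4 TPM in control libraries. Of the epithelial and receptor genes listed as absent or low, PGR was listed at 0 in all 6, ESR1 did not exceed 0.39 TPM and CDH1 did not exceed 0.4 TPM. ERBB2 lay at 22.79 to 27.94 TPM in irradiated and 20.94 to 24.57 TPM in control libraries, and EPCAM at 8.32 to 8.61 TPM in irradiated and 9.43 to 11.27 TPM in control libraries. Irradiated replicate 1 stood apart by the leukocyte gene PTPRC, at 40.36 TPM against at most 0.45 TPM in the other libraries. CD3E, a T cell marker, did not exceed 0.05 TPM there. The third leukocyte marker, CD68, which many cell types express, lay at 92.03 to 97.26 TPM in irradiated and 59.03 to 67.05 TPM in control libraries. Of the 2 endothelial markers, PECAM1 did not exceed 1.5 TPM and CDH5 did not exceed 0.11 TPM. Of the 5 fibroblast and muscle markers, COL1A1 had the highest level, at 8.99 to 13.19 TPM in irradiated and 6.69 to 9.75 TPM in control libraries, and the other 4 stayed at or under 1.61 TPM. The part of such transcripts in the results below was not tested. Results without irradiated replicate 1 are given for some of the genes, not for all. On the second principal component, which held 21.8% of the variance, the scores were -23.9, 25.4 and -6.55 for irradiated replicates 1, 2 and 3, while control scores ran between -0.363 and 4.32. Deviations from the group mean had Spearman correlations with log2 transcript length of 0.241, -0.384 and 0.268 in irradiated replicates 1, 2 and 3. In control replicates 1, 2 and 3 these were -0.0151, 0.106 and -0.101. Fits with GC and length trends removed are among the alternatives. The replicate numbers are not tied to separate cultures in the labels, so a p-value measures differences against a spread that could be purely technical.

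Of the 10 members, WIPI1 and ATG7 rose and none fell by limma, at a threshold of 0.05 after Benjamini-Hochberg adjustment over all 14621 tested genes. Across those genes 10.6% passed, 6.53% upward and 4.07% downward; after median-ratio scaling the shares were 4.84% upward and 7.10% downward, and the same 2 members were called. At an unadjusted p under 0.05 the members counted 2 higher and 1 lower, SQSTM1. The share of all tested genes at that unadjusted threshold is not given, so such counts, here and in the lists below, have no baseline. Fitted log2 changes of the 10 ran from -0.12 to 0.38 with a median of 0.08, against a median of 0.03 and a 5th to 95th percentile range of -0.34 to 0.53 over all tested genes. Every member lay at 7.42 TPM or more in every library, so the filter on low values removed none of them. Summed over the 10 members, the level was 664, 657 and 680 TPM in irradiated libraries and 667, 655 and 661 TPM in control libraries, and the groups overlapped.

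**Figure D1:**
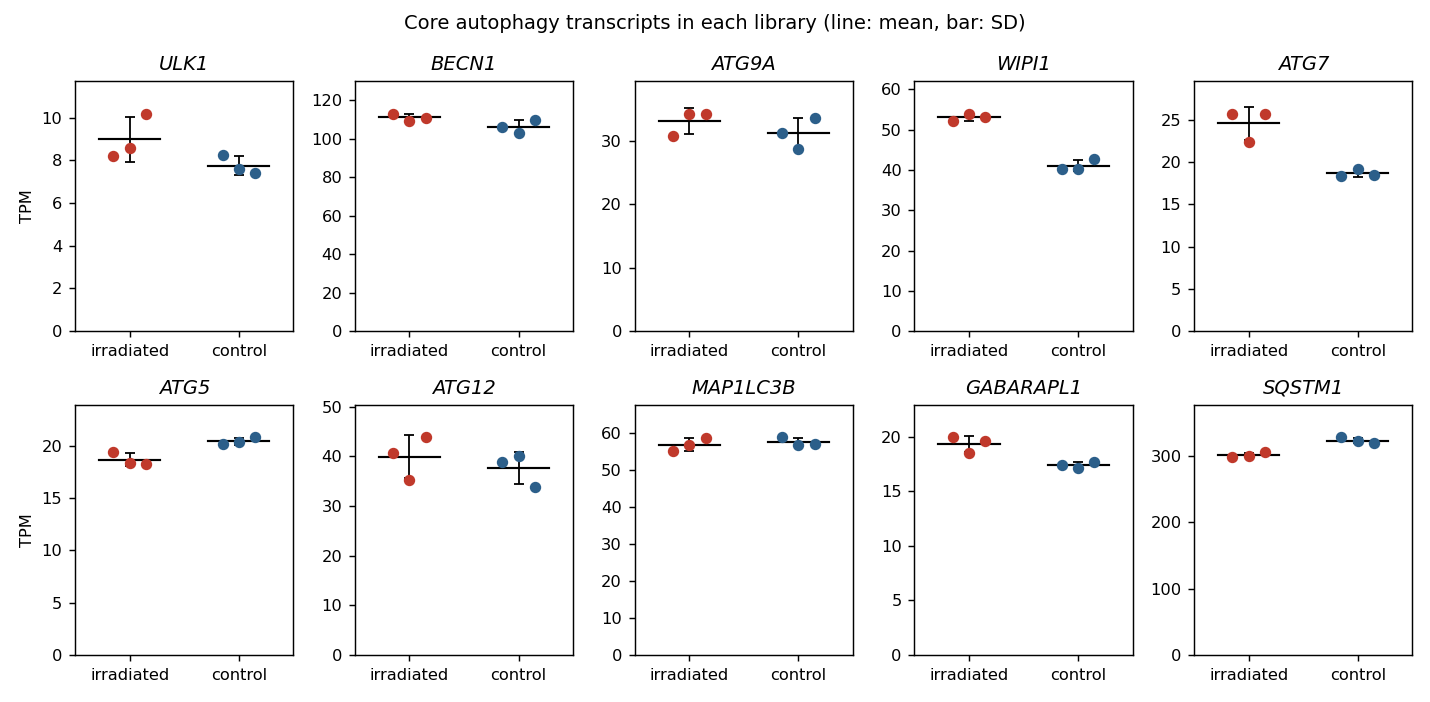
TPM of each of the 10 core autophagy genes (y axis, from 0) in the 3 irradiated and the 3 control libraries (points), with the mean (line) and SD (bar), n = 3 per group. WIPI1, ATG7 and GABARAPL1 stand higher in all irradiated than in all control libraries, and SQSTM1 and ATG5 stand lower.

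WIPI1 encodes a beta-propeller protein that binds phosphatidylinositol 3-phosphate on the forming membrane and recruits later factors. Its level was 52.11, 53.96 and 53.08 TPM in irradiated libraries, against 40.19, 40.26 and 42.69 TPM in control libraries. The lowest irradiated library was well above the highest control. The mean was 53.05 ± 0.925 TPM in irradiated and 41.0 ± 1.42 TPM in control cells (SD, n = 3 each), a fold of 1.29 (log2 change 0.36 ± 0.05 SE, adjusted p = 0.00924). Without irradiated replicate 1 the log2 change was 0.38 (adjusted p = 0.0305). The gene (ENSG00000070540) lies on chromosome 17 from 68420948 to 68457513 on the minus strand in hg38. Exons of ARSG on the opposite strand share 828 bases with its exons; ARSG was at 1.71 to 2.87 TPM in irradiated and 1.17 to 2.4 TPM in control libraries. Whether counting used strand is not stated, so reads in shared exons cannot be told apart here or at the other overlaps given.

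ATG7 encodes the E1-like enzyme that activates both ATG12 and the LC3 and GABARAP proteins for conjugation. Its level was 25.67, 22.34 and 25.7 TPM in irradiated libraries, against 18.31, 19.17 and 18.51 TPM in control libraries. The groups did not overlap, and irradiated replicate 2 lay closest to the controls. The mean was 24.6 ± 1.93 TPM in irradiated and 18.7 ± 0.450 TPM in control cells (SD, n = 3 each), a fold of 1.32 (log2 change 0.38 ± 0.08 SE, adjusted p = 0.0258). The call was lost in 8 of 18 alternatives, among them no filter (adjusted p = 0.0606) and most fits on 5 libraries. It was lost without irradiated replicate 1 (log2 change 0.34, adjusted p = 0.0755) or irradiated replicate 3 (0.34, adjusted p = 0.0816). The same held without control replicate 1 (0.36, adjusted p = 0.0874), control replicate 2 (0.39, adjusted p = 0.0821) or control replicate 3 (0.37, adjusted p = 0.0711). Without irradiated replicate 2 the call was kept (log2 change 0.44, adjusted p = 0.0170), and the cause of this difference was not tested. The gene (ENSG00000197548) lies on chromosome 3 from 11272309 to 11557665 on the plus strand in hg38. Exons of VGLL4 on the opposite strand share 1596 bases with its exons, and VGLL4 was at 32.41 to 36.21 TPM in irradiated and 30.78 to 33.29 TPM in control libraries.

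The sequence upstream of the annotated starts of these 2 genes is shown because they are the members that passed the test. Both are RefSeq sequences of build GRCh38.p14, written 5′ to 3′ on the gene's strand. RefSeq and GENCODE place the starts at different bases, so the 250 bases before the RefSeq start were cut to those that also lie before the GENCODE start. That leaves 233 bases for WIPI1, chr17:68457514-68457746 on the minus strand, and 162 bases for ATG7, chr3:11272147-11272308 on the plus strand. Capitals mark the GC box GGGCGG on either strand, the motif that Sp1-type factors bind.
WIPI1: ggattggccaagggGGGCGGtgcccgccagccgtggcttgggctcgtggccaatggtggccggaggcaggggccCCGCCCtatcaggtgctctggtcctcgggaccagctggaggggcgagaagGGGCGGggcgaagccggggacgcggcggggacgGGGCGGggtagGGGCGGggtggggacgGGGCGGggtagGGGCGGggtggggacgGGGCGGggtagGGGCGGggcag
ATG7: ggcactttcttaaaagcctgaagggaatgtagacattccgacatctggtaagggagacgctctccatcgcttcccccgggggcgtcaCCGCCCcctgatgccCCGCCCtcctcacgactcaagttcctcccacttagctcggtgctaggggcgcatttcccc
In the full window of 300 bases, 250 before and 50 after the RefSeq start, WIPI1 held 10 GC boxes, several of them in a tandem repeat, and ATG7 held 2. Over 35116 annotated promoters of the same length, 45% held at least 1 GC box, 0.214% held 10 or more and 26.7% held 2 or more. All 10 members had at least 1 annotated start in the table, 13 in all, and 10 of these 13 windows held a GC box. Among members that did not pass the test, ULK1 held 5, MAP1LC3B held 4, and the SQSTM1 windows held 2, 3 and 4. ATG9A and GABARAPL1 held 2 each, the ATG5 windows held 0 and 2, and BECN1 and ATG12 held 0. The E-box CACGTG, which TFEB, TFE3 and MYC can bind, was in none of the 13 windows and in 7.26% of all promoters. Its longer form, the CLEAR element known from lysosomal genes, was in none of the 13 and in 0.353% of all. The AP-1 site TGANTCA was in none of the 13 and in 7.71% of all, and the ATF4-type composite core TGATGNAA was in none of the 13 and in 3.62% of all. The antioxidant response core TGACNNNGC was in the window of MAP1LC3B alone and in 13.3% of all promoters. Both strands were searched for each motif, and a site outside these windows would not be seen.

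ULK1 encodes the kinase that receives signals from mTOR and AMPK and starts autophagosome formation, and it had the lowest level of the 10. It was at 8.18, 8.56 and 10.18 TPM in irradiated libraries, against 8.24, 7.6 and 7.42 TPM in control libraries. The groups overlapped, with irradiated replicate 1 inside the control range. The log2 change was 0.18 (95% interval -0.07 to 0.43, adjusted p = 0.308).

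BECN1 encodes Beclin 1, the scaffold of the lipid kinase complex and a binding partner of BCL2 proteins. It was at 113.02, 109.26 and 110.95 TPM in irradiated libraries, against 105.93, 102.97 and 109.63 TPM in control libraries. Irradiated replicate 2 lay below the highest control. The log2 change was 0.06 (95% interval -0.04 to 0.17, adjusted p = 0.371). Exons of PSME3, at 131.84 to 144.51 TPM in irradiated and 132.72 to 160.33 TPM in control libraries, share 300 bases with BECN1 on the opposite strand. Those of CNTD1 share 795 bases with BECN1, also on the opposite strand. CNTD1 was at 0.67 to 0.87 TPM in irradiated and 0.57 to 0.68 TPM in control libraries.

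ATG9A encodes the membrane-spanning lipid scramblase carried on vesicles that seed the growing membrane. It was at 30.8, 34.25 and 34.26 TPM in irradiated libraries, against 31.2, 28.63 and 33.63 TPM in control libraries, and the groups overlapped (log2 change 0.09, 95% interval -0.10 to 0.27, adjusted p = 0.514). Exons of AC068946.2 share 1833 bases with ATG9A on the same strand. AC068946.2 was at 1.58 to 2.36 TPM in irradiated and 2.66 to 3.44 TPM in control libraries.

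ATG5 and ATG12 encode the partners of a covalent conjugate that, with ATG16L1, directs LC3 to the membrane. ATG5 was at 19.4, 18.34 and 18.3 TPM in irradiated libraries, against 20.14, 20.33 and 20.8 TPM in control libraries. All irradiated values were below all control values, yet the difference did not pass the test (log2 change -0.12, 95% interval -0.27 to 0.02, adjusted p = 0.251). ATG12 was at 40.74, 35.26 and 43.83 TPM in irradiated libraries, against 38.81, 40.08 and 33.92 TPM in control libraries. The groups overlapped: irradiated replicates 1 and 3 were above all controls and irradiated replicate 2 lay inside the control range (log2 change 0.08, 95% interval -0.14 to 0.31, adjusted p = 0.623). Exons of AP3S1, at 81.3 to 82.62 TPM in irradiated and 81.08 to 87.96 TPM in control libraries, share 378 bases with ATG12 on the opposite strand.

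MAP1LC3B encodes LC3B, the protein whose lipid-bound form is the usual marker of autophagosomes. It was at 55.08, 56.92 and 58.6 TPM in irradiated libraries, against 58.88, 56.89 and 57.05 TPM in control libraries. The groups overlapped in part, with irradiated replicate 1 below all controls and control replicate 1 above all irradiated libraries, and the log2 change was -0.02 (95% interval -0.13 to 0.09, adjusted p = 0.837). MAP1LC3B2, a near-identical copy, was at 0.81 to 1.21 TPM in irradiated and 0 to 0.95 TPM in control libraries, and reads may be shared between the 2. Exons of FBXO31 share 150 bases with MAP1LC3B on the opposite strand. FBXO31 was at 6.5 to 7.54 TPM in irradiated and 7.11 to 11.55 TPM in control libraries.

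GABARAPL1 encodes a member of the other branch of the same family of attached proteins. It was at 19.93, 18.49 and 19.59 TPM in irradiated libraries, against 17.43, 17.16 and 17.69 TPM in control libraries. All irradiated values were above all control values, and the difference did not pass the test (log2 change 0.14, 95% interval -0.01 to 0.29, adjusted p = 0.206). Both rows of its near-identical copy GABARAPL3 were listed at or under 0.03 TPM.

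SQSTM1 encodes the cargo receptor p62, which is also raised by the transcription factor NRF2 and binds its inhibitor KEAP1. It was the most abundant member, at 299.07, 299.84 and 305.55 TPM in irradiated libraries, against 328.32, 322.17 and 319.99 TPM in control libraries. All irradiated values were below all control values, and the irradiated mean stood at 0.932 of the control mean. The log2 change was -0.10 (95% interval -0.18 to -0.02), with an unadjusted p of 0.0189 and an adjusted p of 0.1002 by limma. With GC and length trends removed from each library the change was -0.16 and passed (adjusted p = 0.0453). SQSTM1 did not pass in the other 17 alternatives by limma (adjusted p up to 0.292). With quantile normalization its log2 change was -0.06 (adjusted p = 0.259). Exons of MRNIP, at 16.43 to 19.24 TPM in irradiated and 15.11 to 16.54 TPM in control libraries, share 1582 bases with SQSTM1 on the opposite strand. Those of MGAT4B share 105 bases with SQSTM1, also on the opposite strand. MGAT4B was at 149.67 to 166.39 TPM in irradiated and 140.64 to 153.2 TPM in control libraries.

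**Figure D2:**
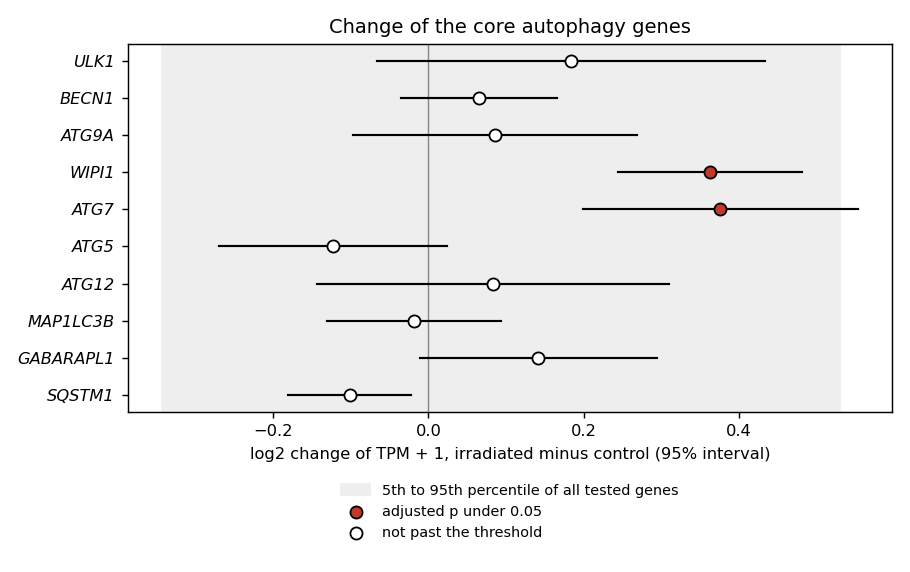
Log2 change of TPM + 1, irradiated minus control, for the 10 members (points) with the 95% interval from limma (lines), n = 3 per group; filled points passed an adjusted p of 0.05, and the grey band spans the 5th to 95th percentile of all 14621 tested genes. WIPI1 and ATG7 are filled, at 0.36 and 0.38, and both lie inside the band.

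Without overlap between groups, 3 members were higher in irradiated cells (WIPI1, ATG7 and GABARAPL1) and 2 were lower (SQSTM1 and ATG5), where 34.9% of all tested genes had no overlap, 20.4% higher and 14.5% lower. The changes of WIPI1 and ATG7 ranked at the 88.9th and 89.7th percentile of all tested genes.

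The order of levels was nearly the same in both groups. In irradiated cells it ran SQSTM1, BECN1, MAP1LC3B, WIPI1, ATG12, ATG9A, ATG7, GABARAPL1, ATG5 and ULK1, by mean TPM. In control cells ATG5 stood above ATG7, and ATG7 above GABARAPL1. ATG7 therefore exceeded ATG5 in all 3 irradiated libraries and was below it in all 3 control libraries. Among neighbours in this order, GABARAPL1 and ATG5 in irradiated cells were the pair whose ranges overlapped (18.49 to 19.93 and 18.3 to 19.4 TPM), and no pair of neighbours overlapped in control cells.

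The genes whose pattern over the 6 libraries was most like that of WIPI1, by Pearson correlation of log2(TPM + 1) among 10067 genes with a mean of at least 5 TPM, were UBL7 (0.998) and NPEPL1 (0.998). For ATG7 they were CHMP5, an ESCRT-III subunit (0.998), and PRTFDC1 (0.997). The points are the same 3 irradiated and 3 control libraries for every gene. A shared difference between the groups can by itself give a high correlation, and shared regulation was not tested. A correlation above 0.95 was held by 421 of these genes with WIPI1 and by 249 with ATG7.

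The members were also set among 88 genes of the pathway listed by step, of which 84 were tested. ULK2, MAP1LC3A, MAP1LC3B2 and MAP1LC3C fell under the filter; MAP1LC3B2 reached 1.21 TPM and was the highest of these. Of the 84, 6 rose and 4 fell, with a median log2 change of 0.04. Leaving out the members, 4 of 74 rose and 4 fell, shares near those of all tested genes (6.53% higher and 4.07% lower). Removing control replicate 1, control replicate 2 or irradiated replicate 3 left 3 of the 84 called. Removing irradiated replicate 1 left 5, removing control replicate 3 left 7, and removing irradiated replicate 2 gave 14. Calls over all tested genes also varied between these fits, at 355, 346, 521, 700, 799 and 1414 in the same order. The counts of listed genes therefore cannot be read as specific to autophagy.

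**Figure D3:**
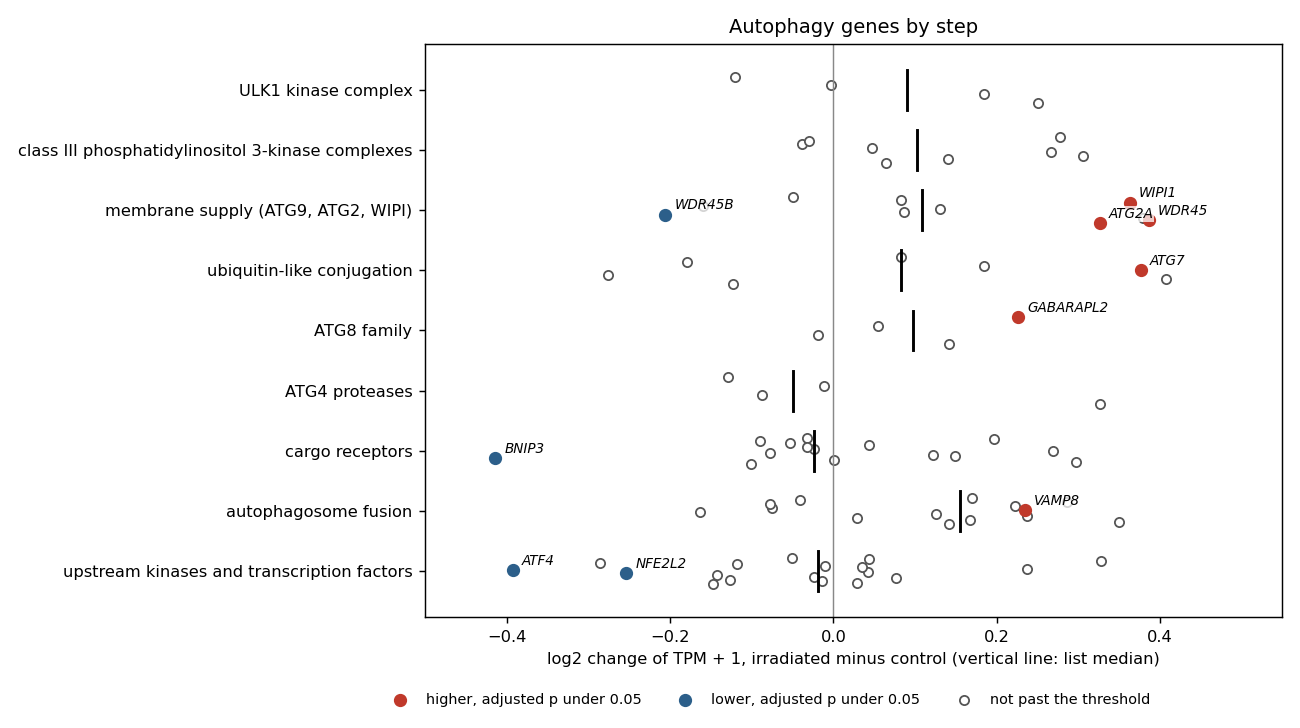
Log2 change of TPM + 1, irradiated minus control (x axis), of each tested gene in the 9 lists of autophagy steps (rows), with the list median as a vertical line; filled points passed an adjusted p of 0.05 and are named. The called genes lie on both sides of 0, with 6 higher and 4 lower.

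In the ULK1 complex, none of 4 tested genes passed by limma in either direction, also at an unadjusted p under 0.05. ATG101, a subunit of the complex and the most abundant of them, was at 43.2, 46.68 and 43.2 TPM in irradiated and 46.67, 49.07 and 49.15 TPM in control libraries (log2 change -0.12 ± 0.06 SE, adjusted p = 0.205). With GC and length trends removed, ATG101 passed (log2 change -0.22, adjusted p = 0.0320). It did not pass in the other 17 alternatives by limma (adjusted p up to 0.405). In the lipid kinase complexes, none of 8 passed by limma. At an unadjusted p under 0.05 by limma, 3 were higher and 0 lower, with no share of all genes to set beside them. BECN1 was the most abundant gene there.

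Of 10 membrane supply genes, 3 rose and 1 fell, where 6.53% and 4.07% of all tested genes did. The list includes the called member WIPI1 and, like the others, was chosen with earlier results known. These counts are therefore not an independent comparison with all genes. WIPI1 belongs there with 3 relatives of the same beta-propeller family. WDR45, also called WIPI4, rose: it was at 46.75, 44.28 and 48.29 TPM in irradiated and 35.96, 34.97 and 34.92 TPM in control libraries (log2 change 0.39 ± 0.05 SE, adjusted p = 0.00951). WDR45B, also called WIPI3 and the most abundant of the family, fell: it was at 102.32, 96.95 and 103.18 TPM in irradiated and 116.41, 113.66 and 119.13 TPM in control libraries (log2 change -0.21 ± 0.04 SE, adjusted p = 0.0313). WIPI2, which recruits ATG16L1 and was named after its values were seen to complete the family, was at 66.39, 62.87 and 61.57 TPM in irradiated and 56.81, 58.14 and 59.05 TPM in control libraries. It did not pass the test (log2 change 0.13 ± 0.05 SE, adjusted p = 0.138). In each of the 4 the groups did not overlap, 3 with higher and 1 with lower irradiated values; the shares over all tested genes were 20.4% and 14.5%. The family summed to 268, 258 and 266 TPM in irradiated and 249, 247 and 256 TPM in control libraries. ATG2A, which encodes a lipid transfer protein that works with WDR45, rose, at 35.06, 32.41 and 33.22 TPM in irradiated and 26.83, 24.84 and 28.1 TPM in control libraries (log2 change 0.33 ± 0.07 SE, adjusted p = 0.0275). Of 18 alternatives, the call was lost in 1 for WDR45, 8 for ATG2A and 9 for WDR45B. Those of ATG2A and WDR45B were lost, among others, with no filter, with eBayes without trend and without control replicate 1, control replicate 2, irradiated replicate 1 or irradiated replicate 3, and that of WDR45B also without control replicate 3; the largest adjusted p over all alternatives was 0.0676 for WDR45, 0.0992 for ATG2A and 0.0976 for WDR45B.

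Of 7 conjugation genes, ATG7 was the 1 that passed, where 10.6% of all tested genes did in either direction. ATG3, the E2-like enzyme that acts after ATG7 on LC3 and the most abundant of the list, was at 94.81, 86.48 and 88.05 TPM in irradiated and 107.86, 99.35 and 98.1 TPM in control libraries. The groups did not overlap, and the difference did not pass (log2 change -0.18 ± 0.06 SE, adjusted p = 0.0912), except after median-ratio scaling (adjusted p = 0.0491).

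Of 4 tested genes of the LC3 and GABARAP family, 1 rose and none fell by limma, where 6.53% and 4.07% of all tested genes did. GABARAPL2 rose, at 67.22, 65.62 and 69.05 TPM in irradiated and 59.45, 55.04 and 57.71 TPM in control libraries (log2 change 0.23 ± 0.05 SE, adjusted p = 0.0337). That call was lost in 10 of 18 alternatives: on leaving out any of the 6 libraries other than irradiated replicate 2, and among others with median-ratio scaling, no filter or eBayes without trend (adjusted p up to 0.119 over all alternatives). GABARAP was the most abundant, at 153.06, 197.2 and 173.11 TPM in irradiated and 188.94, 171.1 and 144.34 TPM in control libraries; its groups overlapped (log2 change 0.05 ± 0.12 SE, adjusted p = 0.805). Of the 4 ATG4 proteases, which trim and release these proteins, none passed by limma. At an unadjusted p under 0.05 by limma, 1 was higher and 0 lower, again without a baseline over all genes. ATG4B, the most abundant, was at 30.47, 34.02 and 35.28 TPM in irradiated and 35.58, 37.54 and 36.05 TPM in control libraries (log2 change -0.13 ± 0.07 SE, adjusted p = 0.270).

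Of 15 cargo receptors, 1 fell and none rose by limma, where 4.07% and 6.53% of all tested genes did. At an unadjusted p under 0.05 by limma, 3 were higher and 2 lower, counts without a baseline over all genes. BNIP3, a mitochondrial receptor also known as a target of hypoxia signalling, fell, at 99.38, 90 and 90.14 TPM in irradiated and 131.25, 128.32 and 114.19 TPM in control libraries (log2 change -0.41 ± 0.07 SE, adjusted p = 0.0151). The call was lost with no filter and without irradiated replicate 3, control replicate 1 or control replicate 2 (adjusted p up to 0.0636 over all alternatives).

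Of 14 genes of autophagosome fusion, 1 rose and none fell by limma, where 6.53% and 4.07% of all tested genes did. The gene was VAMP8, a SNARE of the fusion step. At an unadjusted p under 0.05 by limma, 4 were higher and 0 lower, a count without a baseline over all genes. VAMP8 was at 278.26, 292.86 and 289.47 TPM in irradiated and 243.13, 242.53 and 245.1 TPM in control libraries (log2 change 0.23 ± 0.04 SE, adjusted p = 0.0131). Its call was lost in 7 of 18 alternatives, among them median-ratio scaling, eBayes without trend and the fits without irradiated replicate 3, control replicate 1 or control replicate 2 (adjusted p up to 0.0868 over all alternatives). RAB7A, the late endosome GTPase and the most abundant gene of this list, was at 276.69, 273.86 and 273.99 TPM in irradiated and 273.58, 271.4 and 263.18 TPM in control libraries. Its log2 change was 0.03 ± 0.04 SE (adjusted p = 0.635) and turned to -0.02 after median-ratio scaling.

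Of 18 upstream kinases and transcription factors, 2 fell and none rose by limma, where 4.07% and 6.53% of all tested genes did. At an unadjusted p under 0.05 by limma, 2 were higher and 3 lower, counts without a baseline over all genes. ATF4, the transcription factor of the integrated stress response, which can raise SQSTM1 and MAP1LC3B, fell, at 303.71, 307.99 and 304.78 TPM in irradiated and 400.1, 410.6 and 393.18 TPM in control libraries (log2 change -0.39 ± 0.03 SE, adjusted p = 0.00309). ATF4 passed in all 18 alternatives. NFE2L2, which encodes NRF2, fell, at 45.32, 42.85 and 44.4 TPM in irradiated and 53.39, 54.36 and 50.9 TPM in control libraries (log2 change -0.25 ± 0.05 SE, adjusted p = 0.0268). The NFE2L2 call was lost in 8 of 18 alternatives, among them no filter, eBayes without trend and the fits without irradiated replicate 1, irradiated replicate 3, control replicate 1 or control replicate 2 (adjusted p up to 0.104 over all alternatives).

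**Figure D4:**
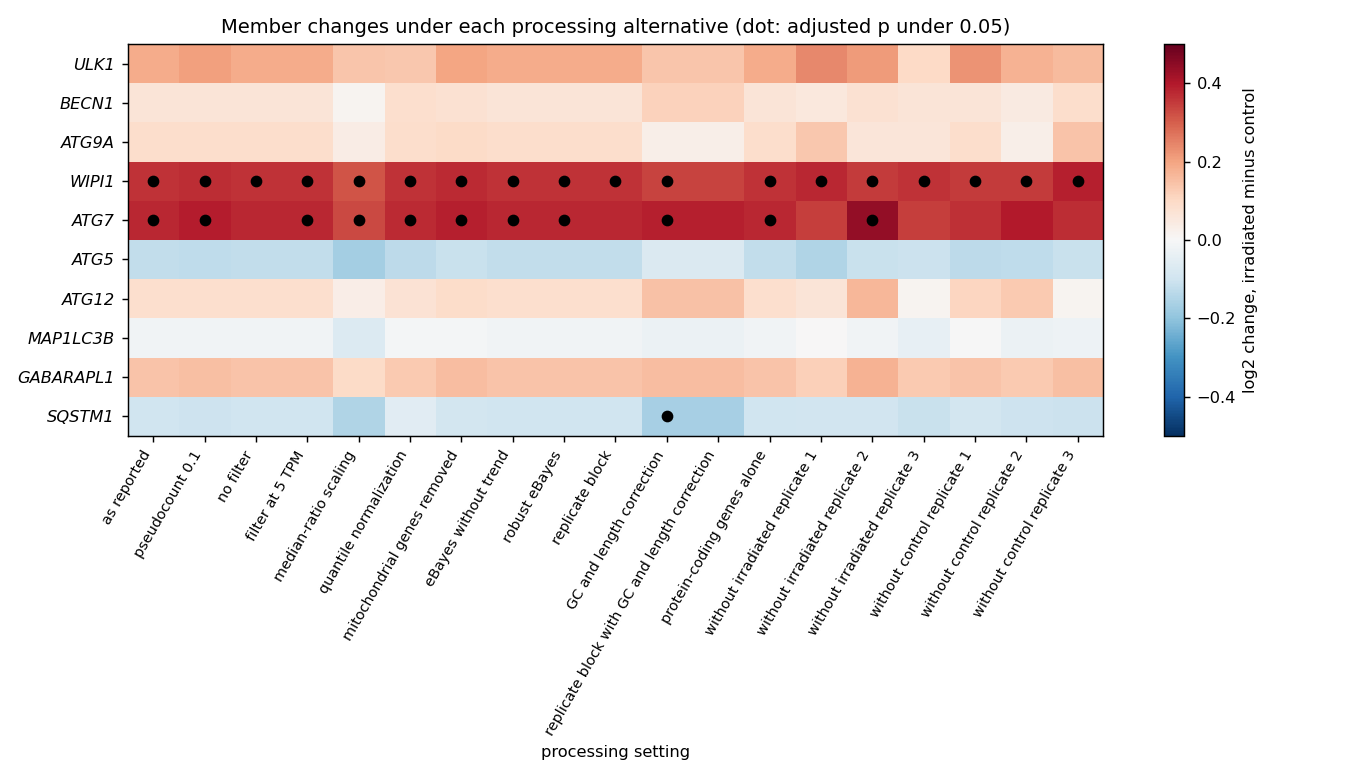
Log2 change, irradiated minus control (colour), of the 10 members (rows) as reported and under 18 processing alternatives (columns); a dot marks an adjusted p under 0.05. WIPI1 carries a dot in 17 of the 18 alternatives, ATG7 in 10 and SQSTM1 in 1.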

How the data were processed

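Per the labels' protocols, a TruSeq kit was used on 1 μg of total RNA per sample. The submitters' processing notes name HISAT2, StringTie, RSEM and build hg38, with no versions or order. The authors deposited TPM values, rounded to 2 decimals, for 61280 gene rows; each column sums to the same total, so read depth is unknown. The 14621 rows that reached 1 TPM in 3 or more of the 6 samples were compared as log2(TPM + 1) in R 4.3.3 by limma 3.58.1 (two-sided, eBayes with trend; degrees of freedom 4 residual, 3.39 prior), adjusted by Benjamini-Hochberg over all rows, threshold 0.05. Fold changes on this scale understate those of low genes. The fit was also run on simulated data with independent errors, which cannot show whether the calls hold in these libraries. No pair of libraries had over 0.479% identical rows, so all 6 were kept. Members and lists were chosen with earlier results of these data known. Named genes were the 10 members, up to 4 called genes with the largest change and the most abundant gene of each list, and the 2 genes most correlated with each called member; WIPI2 and the genes under the filter were named after their values were seen. Coordinates (1-based), exon overlaps, length and GC content of the longest transcript came from GENCODE 29, same assembly as hg38 (97.4% of tested rows). Promoters came from RefSeq. Alternatives changed the pseudocount, filter, scaling, variance moderation, gene set, GC and length trends, replicate block and libraries.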

Additional observations from a re-analysis of the deposited data

How the results depend on the processing

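All 18 alternatives were run. WIPI1 and ATG7 stayed positive in all of them, with log2 changes of 0.31 to 0.39 and 0.33 to 0.44. WIPI1 lost its call only with the replicate block and GC and length correction together (adjusted p = 0.0505), and ATG7 lost it in 8, including no filter (0.0606) and the replicate block (0.0781). Same-numbered libraries had correlations of 0.03, -0.06 and -0.03 between deviations from their group means, and 1 of 3 irradiated libraries correlated best with its own number, so the block was not taken as a pairing. Across all genes the calls numbered 1550 (955 higher, 595 lower) as reported. They numbered 497 (292 higher, 205 lower) with no filter and 993 (274 lower) with eBayes without trend. They numbered 362 (210 higher, 152 lower) with the replicate block, 399 (196 and 203) with the block and GC and length correction, and 707 higher against 1037 lower after median-ratio scaling. Leaving out 1 library gave 346 to 1414 calls, 213 to 898 of them higher and 133 to 516 lower. Of the members, 1 was called with no filter and 1 with the replicate block, both higher, and 0 with the block and GC and length correction; that correction alone added 1 lower call, SQSTM1. Leaving out 1 library gave 1 to 2 member calls, all higher. Of the 84 listed genes, 4 were called with no filter (3 higher, 1 lower), 5 with eBayes without trend (3 higher, 2 lower), 4 with the replicate block (2 higher, 2 lower), 16 with GC and length correction (10 higher; 1558 of all genes, 6.13% higher and 4.81% lower) and 2 with both (0 higher, 2 lower). Leaving out 1 library gave 3 to 14, of which 2 to 10 were higher and 1 to 4 lower. Changes near 0 turned sign for MAP1LC3B (-0.0401 to 0.0038 with 1 library left out, positive without irradiated replicate 1), GABARAP (-0.0509 to 0.144 with 1 library left out, negative without irradiated replicate 2 or control replicate 3) and RAB7A (-0.0210 after median-ratio scaling). Some fits hold fewer samples or a larger number of genes, and the cause of these differences was not tested. Read depth is unknown, so the precision of TPM for the lowest member, ULK1, rests on 3 libraries per group.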
